A study of Homo sapiens with 5 samples.

Results

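The genes described here are 51 human genes that carry cells from G1 into S phase, copy the DNA and repair it at stalled forks. They were taken by symbol from the 58929 genes of the count files and all 51 were found. By role they fall into 9 G1/S regulators, 11 origin licensing factors, 6 helicase activation factors, 14 polymerases, clamp loader subunits and fork enzymes, 4 enzymes of nucleotide synthesis, 2 proteins of DNA methylation maintenance and 5 Fanconi and BRCA genes. The libraries came from A549, an established lung adenocarcinoma cell line, and the study asked how the RNA-binding protein RBMS1 acts in lung cancer. RBMS1 was stably depleted with hairpin sh1088 (1 library) or hairpin sh1196 (1 library), against a hairpin control, called sh control (1 library). It was stably overexpressed in a line labelled R1A (1 library), against a control labelled pCDH (1 library). Before lysis all 5 lines were given cycloheximide, which halts ribosomes on the mRNA, at 100 ug/mL for 15 min, and RNase I treatment of the cleared extract lasted 5 min. The design text calls all 5 libraries ribosome footprint profiles, while the molecule label reads total RNA, so "footprint" rests on the design text. Whether each line was 1 clone or a pool is not given in the sources used here, and nothing says that the 2 knockdown libraries were separate cultures beyond their hairpins. The p-values below thus reflect no more than how far these particular libraries lie apart, and that distance could be technical.

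In G1, the origin recognition complex with CDC6 and CDT1 loads the MCM helicase onto DNA, a step called licensing that geminin (GMNN) blocks later in the cycle. Cyclin E with CDK2 inactivates RB family proteins and so frees E2F transcription factors, which switch on many genes of this set. In S phase MCM10, CDC45 and the GINS complex turn the loaded helicase into a moving one, polymerases follow it, and the Fanconi proteins with BRCA1 and BRCA2 repair forks that meet DNA crosslinks.

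Some promoters of the set held a motif that the choice of genes did not use. RefSeq windows of GRCh38.p14, from 250 bases before to 50 after the start, were at hand for 43 of the 51 genes. Of these, 16 (37.2%) held the E2F motif TTTGGCGC or TTTCGCGC on either strand, against 315 of 15842 protein-coding genes with a window (1.99%). Shares are of genes, and a gene counted if any of its windows held the motif. The 21 matches, with each strand counted on its own, lay between -160 and 7 bases from the start, with a median of -20. Of them, 17 were within 100 bases of it. Overlapping matches on the 2 strands, as in MCM2 at 2 and 6 and in MCM6, count separately, so there are fewer sites than matches. The G2/M genes, a list of 24 mitotic genes, held it in 2 of the 18 with a window (11.1%). The CHR motif TTTGAA, which marks many G2/M promoters, was in 1 of 43 genes of the set (2.33%, RRM1). That compares with 13 of 18 G2/M genes (72.2%) and 15.9% of protein-coding genes. CCAAT was in 55.8% of genes of the set, against 88.9% of G2/M genes and 42.1% of protein-coding genes. A match describes the letters of a window and shows no binding. The stretches below belong to the genes with full statistics in the text that hold an E2F match, shown in capitals, and they let the sequence and its flanks be compared across roles. In MCM6 the motif occurs in 2 places, each a run in which a match on 1 strand overlaps a match on the other.
E2F1, chr20:33686368-33686435, minus strand: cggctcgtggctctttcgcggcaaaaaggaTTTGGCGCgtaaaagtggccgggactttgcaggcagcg
E2F2, chr1:23531238-23531305, minus strand: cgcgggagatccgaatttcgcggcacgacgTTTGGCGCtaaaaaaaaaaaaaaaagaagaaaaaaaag
GMNN, chr6:24775303-24775370, plus strand: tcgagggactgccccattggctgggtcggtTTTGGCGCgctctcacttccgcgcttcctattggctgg
MCM6, chr2:135876492-135876625, minus strand: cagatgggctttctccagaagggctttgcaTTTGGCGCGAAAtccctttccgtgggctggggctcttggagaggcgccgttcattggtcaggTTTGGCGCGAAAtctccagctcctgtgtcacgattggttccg
POLA1, chrX:24693751-24693818, plus strand: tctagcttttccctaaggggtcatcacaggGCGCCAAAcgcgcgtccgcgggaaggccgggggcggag
POLA2, chr11:65261879-65261946, plus strand: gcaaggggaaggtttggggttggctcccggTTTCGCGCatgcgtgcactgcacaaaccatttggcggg
POLE, chr12:132687323-132687390, minus strand: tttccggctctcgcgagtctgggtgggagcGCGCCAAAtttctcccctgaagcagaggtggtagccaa
UHRF1, chr19:4909954-4910021, plus strand: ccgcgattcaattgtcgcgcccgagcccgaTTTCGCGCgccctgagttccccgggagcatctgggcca
DNMT1, chr19:10194918-10194985, minus strand: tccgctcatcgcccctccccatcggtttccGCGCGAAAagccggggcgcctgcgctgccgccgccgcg

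The libraries held between 10327747 and 13980843 expected counts, of which the 51 genes took 11878 in sh1088, 27748 in sh1196, 8431 in the sh control, 29559 in the overexpression library and 34905 in the pCDH control. The lowest count of any of these genes in any library was 9 and the highest was 3083. The share of counts on nuclear protein-coding genes was 42.2% in sh1088, 66.0% in sh1196, 37.7% in the sh control, 62.3% in the overexpression library and 66.3% in the pCDH control. Values below are CPM, that is counts per library scaled by TMM, unless stated otherwise. RBMS1 itself stood at 18.3 CPM in sh1088 and 13.4 in sh1196, against 31.03 in the sh control, and at 37.0 with overexpression, against 24.7 in the pCDH control. By the authors' TPM it stood at 3.70 and 4.20 in the knockdown libraries against 1.59 in the sh control. With overexpression it stood at 12.6 TPM, against 11.6 in the pCDH control. This check of the labels thus depends on the unit for knockdown, and by TPM the rise with overexpression was small. All 12 A549 epithelial markers were detected in all 5 libraries, CDKN2A, which A549 cells lack, lay between 0 and 0.42 CPM, and VWF, KDR, TEK, PTPRC, CD3E, FCGR3A and DCN were at 0 in all 5. The summed CPM of 6 immune markers was 12.6 in sh1088, 12.1 in sh1196, 6.86 in the sh control, 13.0 with overexpression and 21.5 in the pCDH control, nearly all of it CD14. That of 6 fibroblast markers ran from 2.37 to 9.82 and that of 5 endothelial markers from 0.155 to 1.18, and their part in the results was not tested. Expected counts can be split between overlapping genes, and 15 of the 51 overlap another gene on the same strand (BRCA1, BRCA2, DNMT1, FANCD2, FEN1, MCM7, POLA1, POLA2, POLD1, PRIM1, RB1, RBL1, RFC3, RRM2 and UHRF1), so their values are less certain.

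Per length by TPM, the enzymes that make DNA precursors led the set. By the authors' TPM, which divides by gene length, TK1, TYMS and RRM2 had a median rank of 2 among the 51 genes, RRM1 of 4, and MCM7 and RPA1 of 5. These 6 held ranks 1 to 7 in every library. TK1 (thymidine kinase) stood at 43.2 TPM in sh1088, 77.3 in sh1196, 16.9 in the sh control, 83.0 with overexpression and 89.2 in the pCDH control. The E2F factors E2F2 and E2F8, with BRCA2, stood at the bottom, with median ranks of 50, 51 and 48. Between them, many neighbours traded places. RFC4 ranked between 10 and 33, PRIM1 between 12 and 42, CCNE1 between 16 and 41 and POLD1 between 15 and 43, so the order inside the middle of the set is not fixed.

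Subunits that work in 1 complex did not carry equal TPM. Within the MCM2-7 helicase MCM7 was the highest subunit in all 5 libraries, and the lowest was MCM6 or MCM2, with a ratio of highest to lowest between 3.51 and 9.31. Within GINS, GINS4 was highest and GINS3 lowest in each library, by 5.72 to 13.9 times. RPA1, the large subunit of the single-strand binding protein, exceeded RPA2 by 5.05 to 8.26 times. The ribonucleotide reductase subunits RRM1 and RRM2 lay closer, 1.15 to 1.96 times apart, and by TPM which was higher differed between libraries. FANCI exceeded its partner FANCD2 by 2.21 to 8.08 times. Polymerase epsilon stood apart in 1 library: POLE exceeded POLE2 by 12.0 times in the pCDH control, against 1.84 to 5.24 times in the other libraries. Counts per kilobase of coding sequence gave another picture for some complexes. The median over libraries of the ratio of highest to lowest subunit was smaller by that measure than by TPM for MCM2-7 (5.67, against 6.75 by TPM), GINS (4.12, against 8.15), the clamp loader (1.95, against 3.13), RPA (3.35, against 6.16), polymerase alpha-primase (2.60, against 6.09) and polymerase epsilon (1.45, against 2.82). It was larger for ribonucleotide reductase (1.81, against 1.27 by TPM) and FANCD2-FANCI (3.17, against 2.87). For MCM2-7 and FANCD2-FANCI the direction against TPM differed between libraries. The MCM2-7 ratio was larger in sh1196 (9.78, against 6.75), with overexpression (5.67, against 3.93) and in the pCDH control (5.49, against 3.51). That of FANCD2-FANCI was smaller in sh1196 (2.805, against 2.874), the sh control (4.67, against 8.08) and with overexpression (3.55, against 5.31). In the remaining libraries each went the way of its median. Per kilobase of coding sequence RRM2 was above RRM1 in all 5 libraries, by 1.56 to 2.92 times. By the same measure POLE2 lay above POLE in sh1196, with 5.01 against 4.36 CPM per kilobase, and in the sh control, with 2.52 against 1.76. GINS1 replaced GINS4 as the highest GINS subunit in the overexpression library.

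The 5 libraries split into a low pair and a high trio, and this order was not that of the RBMS1 level. The summed CPM of the 51 genes was 1237 in sh1088, 2154 in sh1196, 1051 in the sh control, 2492 with overexpression and 2004 in the pCDH control. Libraries sh1088 and sh control were thus low, while sh1196, the overexpression library and the pCDH control were high. The 48 genes with a mean of at least 5 CPM left out the cyclin CCNE2, the repressor E2F8 and POLE2. Of these 48 genes 13 were lowest in sh1088, against 16.7% of 10565 genes of that level, and 30 in the sh control, against 22.1%. Highest values fell in the overexpression library for 24 genes (20.9% of all genes), in the pCDH control for 14 (29.1%) and in sh1196 for 10 (14.3%), and for 0 genes in sh1088 (11.4%) or the sh control (24.3%). In 35 of the 48, sh1196, the overexpression library and the pCDH control all lay above both sh1088 and the sh control, against 19.8% of all genes. The high trio also had the larger share of protein-coding counts, 62.3% to 66.3% against 42.2% and 37.7%. The 51 genes took 0.240% of protein-coding counts in sh1088, 0.407% in sh1196, 0.192% in the sh control, 0.453% with overexpression and 0.376% in the pCDH control, so the same split appeared within that class. In bulk libraries, fewer cells in late G1 and S phase and fewer footprints per cell cannot be told apart.

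**Figure D1:**
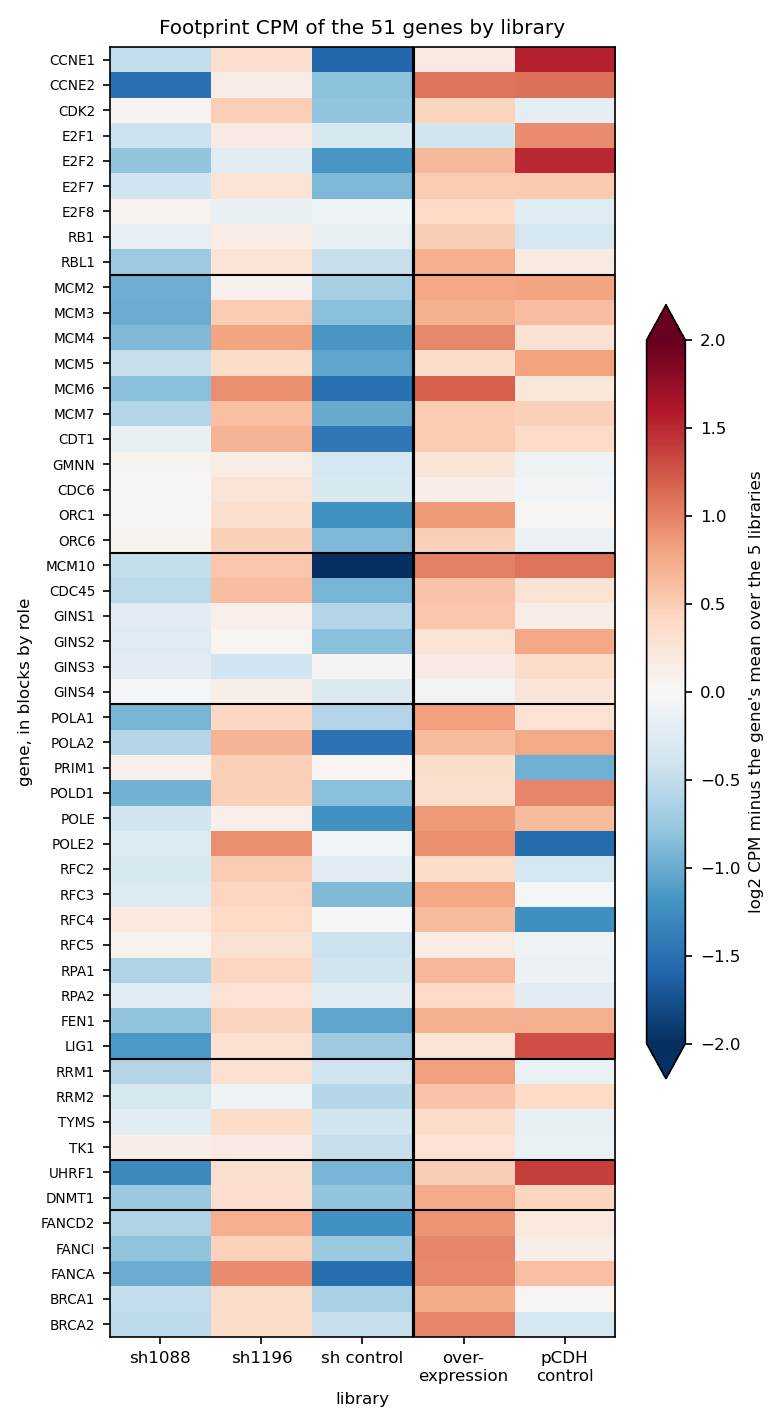
Footprint CPM of the 51 genes (rows, in blocks by role) in the 5 libraries (columns), as log2 CPM minus the gene's mean over the 5 libraries; red is above that mean, blue below, and the arrows of the scale mark values beyond it. Of the 48 genes with a mean of at least 5 CPM, 13 were lowest in the sh1088 column and 30 in the sh control column.

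The roles differed in how wide the split was. Origin licensing factors summed to 337 CPM in sh1088 and 675.8 in sh1196, against 255.6 in the sh control, and to 716.5 with overexpression, against 606.8 in the pCDH control. Fanconi and BRCA genes summed to 100.0 and 230.7 CPM in sh1088 and sh1196, against 91.1 in the sh control, and to 300.0 with overexpression, against 176.2 in the pCDH control. Nucleotide synthesis enzymes differed less between libraries, with 310.9 and 422.0 CPM in sh1088 and sh1196, against 270.0 in the sh control, and 535.3 with overexpression, against 378.4 in the pCDH control. The polymerases, clamp loader subunits and fork enzymes summed to 247.9 and 456.1 CPM in sh1088 and sh1196, against 238.6 in the sh control. G1/S regulators summed to 121.9 and 180.7 CPM, against 97.8, and helicase activation factors to 91.6 and 126.3 CPM, against 69.8. In these 6 roles sh1196 lay above sh1088 and both lay above the sh control. Methylation maintenance differed, with 27.3 CPM in sh1088 and 61.9 in sh1196, against 27.9 in the sh control.

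RBMS1 knockdown, both hairpins together against the sh control, gave values above 0 for nearly the whole set and no call. The median log2 fold change was 0.69, against 0.07 for all 14913 genes tested, and 50 of 51 genes lay above 0, against 54.1% of all genes. GINS3, a GINS subunit, was the exception at -0.32. A log2 fold change of at least 1 was reached by 17 of the 51 (12.5% of all genes), and of at most -1 by 0 (8.5%). By edgeR's quasi-likelihood test with Benjamini-Hochberg adjustment 0 of the 51 passed 0.05, as did 0 of all genes (0.0%), and the smallest adjusted p in the set was 0.828. At an unadjusted p under 0.05 edgeR gave 6 of the 51 (CCNE1, CDT1, ORC1, ORC6, MCM10 and POLA2), all higher, against 3.27% of all genes that were higher and 2.61% that were lower at that limit. DESeq2 called 14 genes (0.0939%) and limma-voom 0, with 0 of the 51 in either.

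Origin licensing had the highest median of the 7 roles, and the highest single value was that of a helicase activation factor, MCM10. MCM10 (ENSG00000065328.16, GRCh38 chromosome 10, 13161554 to 13211104), which helps to activate the loaded helicase, had 10.6 CPM in sh1088 and 21.7 in sh1196, against 3.24 in the sh control. It stood at 2.35 on the log2 scale (SE 0.67, adjusted p = 0.828 by edgeR), higher in 2 of 2 hairpin libraries. Counts behind it were 102 and 280 against 26. CDT1 (ENSG00000167513.9, chromosome 16, 88803213 to 88809258), the loading factor that geminin blocks, had 11.9 and 21.1 CPM in sh1088 and sh1196, against 4.86 in the sh control. Both hairpin libraries lay above the control, at 1.79 on the log2 scale (SE 0.60, adjusted p = 0.828 by edgeR). ORC6, a subunit of the origin recognition complex, stood at 21.5 and 28.7 CPM in sh1088 and sh1196, against 11.0, a log2 fold change of 1.23 (SE 0.49). CDC45, part of the moving helicase, stood at 11.2 and 24.9 CPM, against 8.60, a log2 fold change of 1.10 (SE 0.61). All 11 licensing factors lay above 0, 7 of them at 1 or more, with a median of 1.16, while the 6 helicase activation factors had a median of 0.67 with 5 above 0. By hairpin, 9 of the 11 licensing factors lay above 0 in sh1088 over the sh control (44.5% of all genes) and 11 in sh1196 (50.9%).

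Among G1/S regulators the values were smaller, with a median of 0.39 and 9 of 9 above 0 in the fit of both hairpins. Of those with a mean of at least 5 CPM, 2 of 5 lay above 0 in sh1088 over the sh control (44.5% of all genes). In sh1196 6 of 6 did (50.9%). CCNE1 (cyclin E1, ENSG00000105173.14, chromosome 19, 29811898 to 29824308) had 6.87 CPM in sh1088 and 12.3 in sh1196, against 3.24 in the sh control. It stood at 1.59 (SE 0.66, edgeR adjusted p = 0.828), higher in 2 of 2 hairpin libraries. CDK2, the kinase that cyclin E activates, had 52.9 and 70.7 CPM in sh1088 and sh1196, against 29.4, a log2 fold change of 1.10 (SE 0.48). The pocket protein RB1, which holds E2F back, had 18.8 and 23.4 CPM, against 18.9, so that 1 library lay at the control and 1 above it.

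The 14 polymerases, clamp loader subunits and fork enzymes all lay above 0 in this fit of both hairpins, with a median of 0.53 and 4 at 1 or more. The hairpins differed here. In sh1196 over the sh control 14 of 14 lay above 0 (50.9% of all genes). In sh1088 7 of the 13 with a mean of at least 5 CPM did (44.5%), with a median log2 ratio of 0.06. POLA2, the regulatory subunit of polymerase alpha, had 10.6 and 25.7 CPM in sh1088 and sh1196, against 5.73, and stood at 1.70 (SE 0.67). POLE, the catalytic subunit of the leading strand polymerase, had 21.5 and 29.9 CPM, against 12.1, and stood at 1.12 (SE 0.49). The 4 enzymes of nucleotide synthesis ran from 0.36 to 0.64 with 0 at 1 or more. TK1 had 81.4 and 83.6 CPM in sh1088 and sh1196, against 54.3, which gave 0.64 (SE 0.47, adjusted p = 0.845 by edgeR). TYMS, thymidylate synthase, had 82.2 and 123.5 CPM, against 73.8, which gave 0.51 (SE 0.51, adjusted p = 0.870 by edgeR). Of the 2 methylation proteins, DNMT1 had 22.6 and 47.7 CPM, against 21.9, and UHRF1, which guides DNMT1 to freshly copied DNA, 4.69 and 14.1 CPM, against 5.98. For both, only sh1196 lay clear of the control, and their log2 fold changes were 0.71 (SE 0.56, edgeR adjusted p = 0.856) and 0.69 (SE 0.75, edgeR adjusted p = 0.882).

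The 5 Fanconi and BRCA genes had a median of 0.74 and all lay above 0 in the fit of both hairpins. Over the sh control 3 of the 5 lay above 0 in sh1088 (44.5% of all genes) and 5 of 5 in sh1196 (50.9%). FANCA (ENSG00000187741.15, chromosome 16, 89737549 to 89816657), of the core complex that marks FANCD2 and FANCI, had 7.50 CPM in sh1088 and 28.5 in sh1196, against 5.24 in the sh control. FANCD2 had 15.3 and 38.2 CPM, against 9.97. Both genes were far higher in sh1196 than in sh1088, and their log2 fold changes were 1.81 (SE 0.87) and 1.46 (SE 0.65). In the authors' deposited table, made with tools that the submitters' notes name without roles, 5 of the 51 carry the class up for knockdown (1.69% of genes with an adjusted p) and 0 the class down (1.77%). These were MCM10 at 2.35, MCM6 at 1.82, CDT1 at 1.79, POLA2 at 1.69 and CDK2 at 1.10 on the log2 scale in the authors' deposited table.

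The 2 hairpin libraries, 1 per hairpin, gave values of different size. In sh1088 over the sh control the 46 genes with a mean of at least 5 CPM had a median log2 ratio of 0.26, against -0.07 for all genes, and 30 lay above 0 (44.5% of all genes). CCNE2, E2F2, E2F7, E2F8 and POLE2 fell below that level there, and CCNE2, E2F2 and E2F8 in both comparisons with sh1196. At least 2-fold higher were 4 of the 46 (3.36% of all genes) and 0 were 2-fold lower (3.85%). In sh1196 over the sh control the median of 48 genes was 1.03, against 0.02 for all genes, and 47 lay above 0 (50.9%). At least 2-fold higher were 26 of the 48 (10.4% of all genes) and 0 were 2-fold lower (13.1%). These comparisons share the sh control library, hold 1 library per group and have no replicate check. Intervals given with them are 95% counting intervals, which leave out PCR copies and spread between cultures.

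The widest values of sh1088 over the sh control were those of MCM10 at 1.71 (1.08 to 2.39), CDT1 at 1.29 (0.75 to 1.85) and ORC1, the largest subunit of the origin recognition complex, at 1.21 (0.67 to 1.78). Its lowest were LIG1, the ligase that joins Okazaki fragments, at -0.42 (-0.73 to -0.11), POLA1, the catalytic subunit of polymerase alpha, at -0.35 (-0.75 to 0.04) and UHRF1 at -0.35 (-0.97 to 0.27). For sh1196 over the sh control the widest were MCM10 at 2.75 (2.16 to 3.38), FANCA at 2.44 (1.98 to 2.94) and the helicase subunit MCM6 at 2.42 (2.13 to 2.73). The lowest there were GINS3 at -0.45 (-0.90 to 0.01), RB1 at 0.31 (0.02 to 0.60) and the clamp loader subunit RFC4 at 0.40 (0.15 to 0.67). MCM10 thus led both hairpins, while LIG1 and POLA1 lay below 0 in sh1088 and stood at 1.03 and 1.001 in sh1196.

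**Figure D2:**
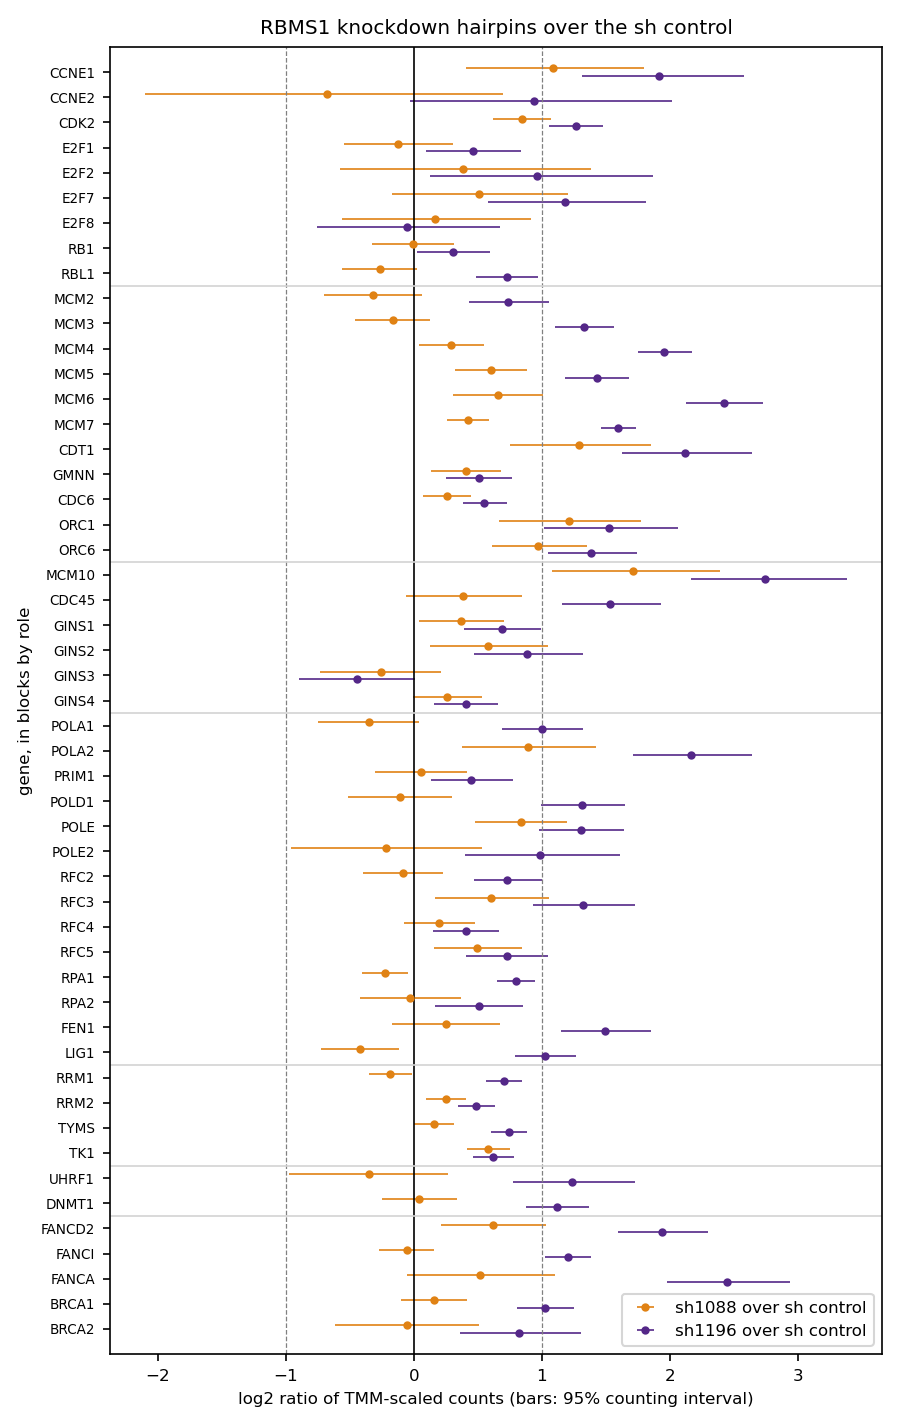
Log2 ratio of TMM-scaled counts of each hairpin library over the shared sh control for each of the 51 genes, in blocks by role, with 95% counting intervals as bars and 2-fold limits as dashed lines. For sh1196 47 of 48 genes with a mean of at least 5 CPM lay above 0, and for sh1088 30 of 46.

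Set directly against each other, sh1196 over sh1088 had a median of 0.83 over 48 genes, against 0.04 for all genes, with 47 above 0 (52.6% of all genes). At least 2-fold higher in sh1196 were 19 of the 48 (6.33% of all genes) and 0 were 2-fold lower (6.93%). FANCA had 367 counts in sh1196 against 72 in sh1088, a log2 ratio of 1.93 (1.56 to 2.31). MCM6 had 904 against 198, at 1.77 (1.54 to 1.996), and MCM4, another helicase subunit, 1348 against 317, at 1.66 (1.49 to 1.85). At the other end GINS3 stood at -0.19 (-0.64 to 0.27), TK1 at 0.04 (-0.10 to 0.17) and GMNN at 0.10 (-0.12 to 0.32). The counting intervals of FANCA, MCM6 and MCM4 did not reach 0, while those of TK1, GMNN and GINS3 included it. With 1 library per hairpin the spread between cultures was not measured. RBMS1 differed less between the 2 libraries, at 13.4 CPM in sh1196 and 18.3 in sh1088. In 32 of 48 genes the order was sh1196 above sh1088 above the sh control, against 24.4% of all genes.

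The gap between the controls, neither of which has RBMS1 altered by its label, was as wide as that of sh1196. In the pCDH control over the sh control the median of 48 genes, all but CCNE2, E2F8 and POLE2, was 1.08, against -0.02 for all genes, with 44 above 0 (49.1% of all genes). At least 2-fold higher were 24 of the 48 (17.3% of all genes) and 2-fold lower 1 (19.0%). MCM10 had 31.3 CPM in the pCDH control, against 3.24 in the sh control, a log2 ratio of 3.27 (2.70 to 3.90). CCNE1 had 28.2 CPM, against 3.24, at 3.12 (2.55 to 3.75), and E2F2, an activating E2F factor, 12.8 CPM, against 1.99, at 2.68 (1.95 to 3.51). RFC4 was lower, with 9.88 CPM in the pCDH control against 22.9 in the sh control, at -1.22 (-1.52 to -0.91). PRIM1, the primase subunit that starts each fragment, stood at -0.99 (-1.36 to -0.62) and RB1 at -0.19 (-0.47 to 0.11). This comparison and both hairpin ratios rest on the same sh control library, in which MCM10 and CCNE1 had 26 counts each.

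With the pCDH control put in place of the sh control, the knockdown median of the set was -0.13, against 0.05 for all genes, and 21 of 51 genes lay above 0. The share of all genes above 0 in that fit is not given here. MCM10 then stood at -0.93, CCNE1 at -1.54, UHRF1 at -1.64, CDT1 at -0.036 and FANCA at -0.30, all below 0. CDK2 at 0.47, ORC6 at 0.43, TK1 at 0.29, TYMS at 0.28 and FANCD2 at 0.028 still lay above 0. They make up 5 of the 14 genes with full statistics in the knockdown fit.

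Overexpression against the pCDH control gave values on both sides of 0. The median log2 ratio of 49 genes, all but E2F8 and POLE2, was 0.34, against 0.06 for all genes, and 34 lay above 0 (52.6% of all genes). At least 2-fold higher were 3 of the 49 (14.6% of all genes) and 3 were 2-fold lower (13.7%), shares below the background in both directions. RFC4 had 35.7 CPM with overexpression, against 9.88 in the pCDH control, a log2 ratio of 1.86 (1.60 to 2.12). BRCA2, which acts in repair by homologous recombination, had 17.5 CPM, against 7.01, at 1.32 (0.99 to 1.66), and PRIM1 18.3 CPM, against 7.41, at 1.304 (0.98 to 1.63). By log2(TPM + 1) and log2(TPM + 0.1) BRCA2 stood at -0.18 and -0.24, where the median of all genes was -0.72 and -0.79. CCNE1 had 11.0 CPM with overexpression, against 28.2 in the pCDH control, at -1.36 (-1.65 to -1.08). E2F1, the founding E2F factor, had 10.6 CPM, against 26.4, at -1.31 (-1.61 to -1.03), and LIG1 47.3 CPM, against 95.4, at -1.01 (-1.15 to -0.87). RFC4, PRIM1 and CCNE1 were also at the extremes of the pCDH control over the sh control, with the opposite sign, and both ratios use the pCDH library. POLE2, the second subunit of polymerase epsilon, fell short of 5 CPM on average, with 94 counts against 25 and a log2 ratio of 2.46 (1.82 to 3.16). In the authors' deposited table for this 1 against 1 comparison, 4 of the 51 carry the class up (13.7% of genes with an adjusted p) and 6 the class down (11.7%). The authors' deposited table gives POLE2 at 2.18 and RFC4 at 1.57 on the higher side, and LIG1 at -1.57, CCNE1 at -1.45 and UHRF1 at -1.43 on the lower. For some genes its sign was the other one, each time below 0 there and above 0 by TMM-scaled counts. RRM2 stood there at -0.40, TK1 at -0.17 and CDC45 at -0.13, against 0.17, 0.42 and 0.29 by TMM-scaled counts. The same held for MCM3, MCM7, CDC6, CDT1, POLE, FEN1, RFC5, DNMT1 and FANCA. Among these the authors' values ran from -0.58 (CDT1) to -0.03 (RFC5). Others, such as RRM1 at 0.60 and FANCI at 0.58, lay above 0 by both. The 34 genes above 0 thus hold for TMM-scaled counts, and fewer of them lay above 0 in the authors' table.

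GC content of the transcript moved with this comparison. Across 49 genes of the set the ratio of overexpression to the pCDH control had Pearson r = -0.586 and Spearman rho = -0.603 with GC content, and across 9980 protein-coding genes -0.554 and -0.575. For the pCDH control over the sh control the sign was opposite, at 0.477 and 0.538 across 48 genes of the set and 0.384 and 0.394 across 10038 coding genes. These are correlations across genes that share the same libraries and are not independent. In sh1196 over the sh control they were 0.211 and 0.285 across 48 genes, and in sh1088 over the sh control 0.0765 and 0.0494 across 46. The transcripts of the set ran from 36.3% to 65.0% GC with a median of 49.1%, against 48.7% for coding genes. With the GC trend of coding genes taken out, overexpression over the pCDH control had a median of 0.20, with 3 of 49 at least 2-fold higher (8.92% of coding genes) and 1 lower (8.28%). RFC4 then stood at 1.51 and CCNE1 at -1.22, while BRCA2 stood at 0.57, PRIM1 at 0.71, E2F1 at -0.53 and LIG1 at -0.35. TK1 and CDT1, both GC-rich, stood at 1.23 and 1.08 after removal of the trend, against 0.42 and 0.13 before. For the pCDH control over the sh control the set's median was 1.04 after removal of the trend, with 28 of 48 at least 2-fold higher (13.9% of coding genes), 1 lower (15.7%), MCM10 at 3.38 and CCNE1 at 2.97. Between the hairpin libraries and the sh control the trend changed little. Without it 5 of 46 genes were at least 2-fold higher in sh1088 over the sh control (3.49% of coding genes) and 0 lower (2.53%), and 27 of 48 in sh1196 over the sh control (9.62%) with 0 lower (11.8%). In sh1196 over sh1088 17 of 48 were at least 2-fold higher (5.05%) and 0 lower (6.75%). The mean fragment was 40.9 nt long in the overexpression library, against 52.3 nt in the pCDH control. The part of GC content and fragment length in these ratios was not tested beyond the removal of the trend.

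**Figure D3:**
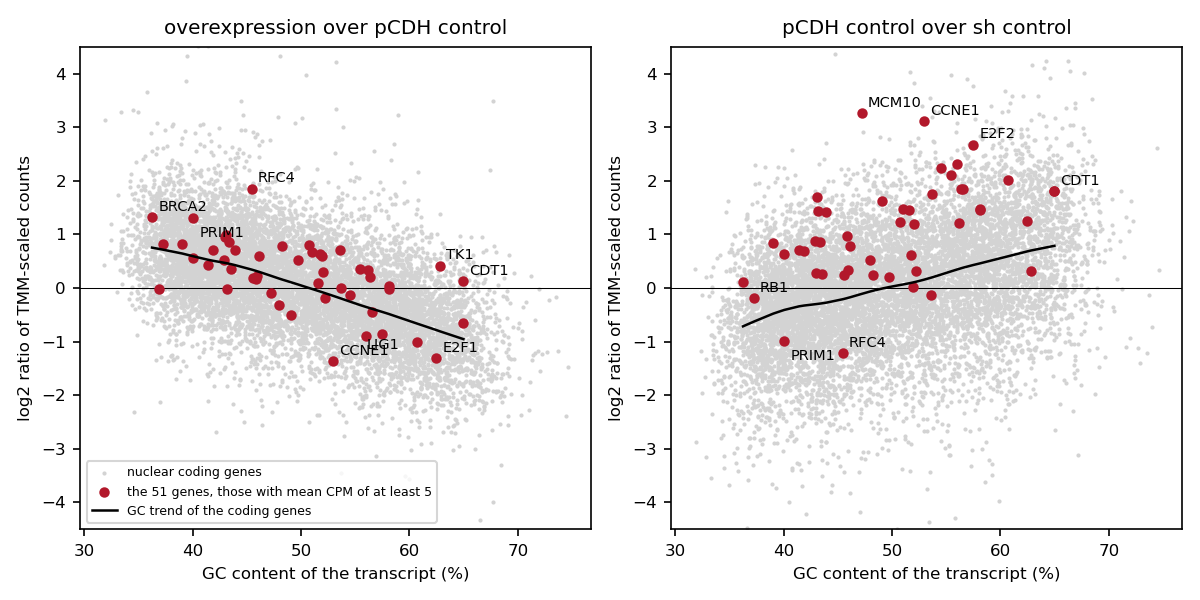
Log2 ratio of TMM-scaled counts against the GC content of the transcript, for overexpression over the pCDH control (left) and the pCDH control over the sh control (right); red points are the 49 and 48 genes of the set with a mean of at least 5 CPM, grey points are nuclear coding genes, the black line is their GC trend, and genes beyond the axis are not drawn. The trend falls on the left and rises on the right, with RFC4 at 1.86 and CCNE1 at -1.36 away from it on the left.

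A fit of all 5 libraries on the RBMS1 level, coded -1 for knockdown, 0 for both controls and 1 for overexpression, in which the vector system was a second term, gave no call in the set. The median slope was -0.24 per level, against 0.03 for all 14523 genes, and 12 of 51 genes lay above 0, against 52.0% of all genes. A slope of at least 1 was reached by 0 of the 51 (7.62% of all genes) and of at most -1 by 2 (8.5%). By edgeR 0 of the 51 passed an adjusted p of 0.05, as did 0 of all genes (0.0%), while DESeq2 called 56 of 12833 genes (0.436%) and limma-voom 0. At an unadjusted p under 0.05 edgeR gave 962 genes, 3.32% of all genes with a higher and 3.31% with a lower slope. CCNE1 was the 1 gene of the set among them, at -1.47 per level (SE 0.45, edgeR adjusted p = 0.718). Cyclin E1 was higher in both hairpin libraries than in the sh control and lower with overexpression than in the pCDH control. The controls themselves lay far apart, at 3.24 CPM in the sh control (26 counts) and 28.2 in the pCDH control. The overexpression library, at 11.0 CPM, lay between sh1088 at 6.87 and sh1196 at 12.3. Without the vector term the slope of CCNE1 was 0.21 and the median of the set 0.23.

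Other genes of the same pathways, listed beside the set, gave a mixed picture. Of 46 other G1/S and replication genes, 30 lay above 0 in the edgeR fit of knockdown against the sh control, with a median of 0.20 and 0 called, against 54.1% of all genes above 0 in that fit. In sh1196 over the sh control their median was 0.32 over 45 genes, with 8 at least 2-fold higher (10.4% of all genes) and 2 lower (13.1%). Of 20 other Fanconi and recombination genes, 19 lay above 0 in the knockdown fit, with a median of 0.90 and 0 called. The G2/M genes had a knockdown median of 0.79 with 22 of 24 above 0 and 0 called, close to the 0.69 of the set. In sh1196 over the sh control both the G2/M genes and the set had a median of 1.03. They parted with overexpression over the pCDH control, where the median of the G2/M genes was 0.62 and that of the set 0.34, and in the pCDH control over the sh control, where they stood at 0.62 and the set at 1.08. The G2/M transcripts were poorer in GC, with a median of 44.9%. With the GC trend taken out, the overexpression median was 0.38 for the G2/M genes and 0.20 for the set. For the pCDH control over the sh control it was then 0.56 for the G2/M genes and 1.04 for the set, so the lists still parted in both comparisons. The 12 A549 epithelial markers lay on the other side of 0 in several comparisons. Their median was -0.30 in the knockdown fit with 10 of 12 below 0, -0.61 in sh1196 over the sh control with 5 of 12 at least 2-fold lower, and -0.73 in the pCDH control over the sh control. With overexpression over the pCDH control it was 0.65 with 10 of 12 above 0. The difference between lists and the part of these markers in the results were not tested.

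**Figure D4:**
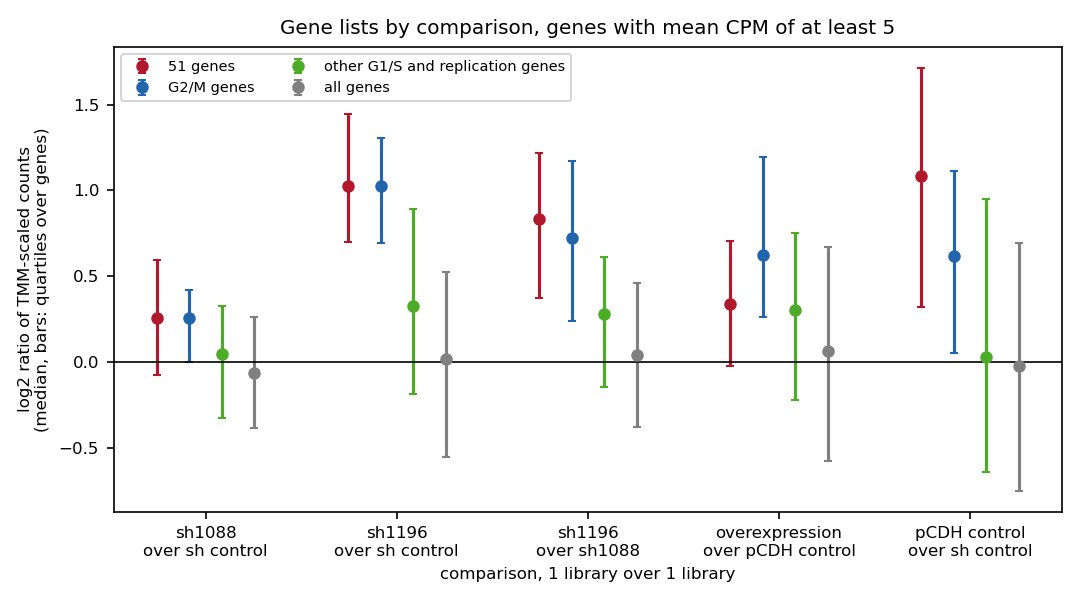
Median log2 ratio of TMM-scaled counts (points) with quartiles over genes (bars) for the 51 genes, the G2/M genes, the 46 other G1/S and replication genes and all genes, in 5 comparisons of 1 library over 1 library, each over genes with a mean of at least 5 CPM. The median of the set was 1.03 in sh1196 over the sh control and 1.08 in the pCDH control over the sh control.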

How the data were processed

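Expected counts per gene were estimated with RSEM by the authors, per the file headers, with TPM and FPKM deposited beside them and scaled to effective gene length. The authors also deposited comparison tables with a mean signal of normalised counts, log2 fold changes and p-values. Per the submitters' processing notes, RSEM 1.3.1, STAR 2.4.2, DESeq2 and Bowtie were used, with no role given. The genome build is not given in the sources used here. Per the labels' protocols, cells received cycloheximide at 100 ug/mL for 15 min and lysates RNase I for 5 min. Coordinates, GC content and coding length came from GENCODE 29 (GRCh38), which matched 58656 of 58929 gene identifiers.

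Expected counts were rounded and scaled by TMM. Knockdown (2 libraries) was tested against the sh control (1) with edgeR 4.0.16 in R 4.3.3 (quasi-likelihood, robust, filterByExpr, Benjamini-Hochberg over all genes at 0.05), with 1 residual degree of freedom, so the sh control is taken to have the spread of the hairpin libraries. The level fit had 2. The tests were run on simulated counts with large changes only, and the check was that fitted and true fold changes correlated. It was not a check of power or of false calls. Comparisons of 1 library with 1 give log2 ratios over genes with mean CPM of at least 5, with exact conditional 95% counting intervals. The GC trend was a lowess curve over nuclear coding genes (fraction 0.3). Alternatives were DESeq2 1.42.0, limma-voom 3.58.1, other scalings, filters, units and controls.

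The genes, lists and rules were chosen with earlier results of these data known. Full statistics go to genes called in any test, to the 2 of each role with the smallest knockdown p, and to the 3 largest and 3 smallest ratios of each comparison among genes with mean CPM of at least 5. POLE2 and genes listed by count or in the authors' tables fall outside that rule and were named after their values were seen.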

Additional observations from a re-analysis of the deposited data

How the results depend on the processing

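No paired analysis was possible because the labels give no replicate numbers and each control is 1 library. For knockdown against the sh control the direction of the 14 genes with full statistics held under every alternative but the pCDH control and the loss of sh1196. Genes called, 0 by edgeR, were 27 with library size only, 4 over coding genes only, 102 with no filter, 14 by DESeq2 and 93 with the pCDH control, with 0 of the 51 among them in each. The set's median was 1.32 with library size only (all genes 0.62), 1.66 by log2(TPM + 1) (all genes 0.84) and -0.13 with the pCDH control, where 21 of the 51 lay above 0. That control gave CCNE1 -1.54, CDT1 -0.036, MCM10 -0.93, CDC45 -0.11, POLA2 -0.56, POLE -0.74, DNMT1 -0.51, UHRF1 -1.64 and FANCA -0.30. Leaving out 1 hairpin gave 33 genes of the set above 0 without sh1196 and 49 without sh1088. Of all genes with a mean of at least 5 CPM, 44.5% and 50.9% lay above 0 in those comparisons. UHRF1 stood at 1.24 without sh1088 and -0.35 without sh1196. For the level fit, genes called were 28 with library size only, 89 with no filter and 56 by DESeq2, and 22 to 28 with 1 hairpin left out. Genes of the set above 0 were 3 with library size only, 44 with no vector term (median 0.23, CCNE1 0.21) and 9 to 24 with 1 hairpin left out. The share of all genes above 0 in these fits, and in the fit with the pCDH control, is not given here. Those counts of the set therefore have no background beside them.

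With library size only, genes at least 2-fold higher were 8 in sh1088 over the sh control (6.53% of all genes under that setting), 47 in sh1196 over the sh control (43.7%; median 1.88, all genes 0.87), 36 in sh1196 over sh1088 (28.7%; median 1.44, all genes 0.65) and 42 in the pCDH control over the sh control (43.5%). There 0 were 2-fold lower (6.27%), against 2 over coding genes only (19.9%). For overexpression over the pCDH control, 2-fold lower genes were 5 with library size only (16.8% of all genes), 14 by log2(TPM + 1) (37.1%), 15 by log2(TPM + 0.1) (41.4%) and 1 with the GC trend removed (8.28%). By both TPM settings 1 gene was 2-fold higher (3.19% and 4.1% of all genes) and 10 lay above 0 (20.6%), with medians of -0.68 and -0.71 (all genes -0.72 and -0.79) and BRCA2 at -0.18 and -0.24. By log2(FPKM + 1) 21 lay above 0 (39.1%), with a median of -0.18 (all genes -0.25). Per kilobase of coding sequence the median ratio of highest to lowest subunit was 4.12 for GINS, 1.95 for the clamp loader, 3.35 for RPA, 2.60 for polymerase alpha-primase and 1.45 for polymerase epsilon. The E2F core alone, GGCGC or CGCGC, was in 97.7% of the genes of the set with a window. It was also in 72.3% of protein-coding genes and 100.0% of G2/M genes with a window. The cause of these shifts was not tested. Depth limits CCNE2, E2F2, E2F8 and POLE2, which had few counts.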
